A study of Mus musculus with 18 samples.

Results

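The data described here are the RNA-seq values of 3 testis cultures given 10 μg/mL alginate oligosaccharides (A10) and of 3 cultures kept without them (A0), 6 of the 18 samples of the series, chosen by their treatment labels. Alginate oligosaccharides (AOS) are short sugar chains obtained by breaking down alginate, a polysaccharide of brown seaweed. All 6 samples were testes of ICR mice, an outbred stock, and the labels name no engineered allele. No busulfan was given to these mice, which were of an age with animals injected at 3 weeks of age in the other arm of the study, and their testes were removed 2 weeks after that injection. Both groups then spent 48 h in culture at 37 °C in DMEM/F12 that held 10% FBS, and no blood supply, so each value describes cultured tissue and not the organ in the animal. The design text of the series gives the AOS dose in mg/kg body weight, but the sample labels give μg/mL of medium, which is the unit used here. The methods describe 6 testes per treatment and 3 repeats, but neither the methods nor the labels say which animals went into which sample. The p-values below therefore measure only the spread between samples within the groups of the whole series, which may be technical. The comparison asks what AOS did to the transcripts of an intact testis in culture.

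The testis holds germ cells at successive steps (spermatogonia, spermatocytes in meiosis, round and elongating spermatids), the Sertoli cells that nurse them inside the tubules, and the Leydig cells, macrophages, vessels and myoid cells around the tubules. Sertoli cells seal the tubule by junctions known as the blood-testis barrier. In a piece of tissue without blood flow, oxygen reaches cells by diffusion, and cells that sense low oxygen stabilise the factor HIF, which turns on genes for glucose uptake, glycolysis, vessel growth and the folding of secreted proteins.

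The table holds 22657 genes, and 15054 of them had at least 1 FPKM (fragments scaled by transcript length and by the mapped fragments of the library) in 3 or more of the 6 samples and were tested. Of those, 16 passed through the A10 samples alone and 26 through the A0 samples alone. Column sums lay between 463970 and 511274 FPKM, and the number of reads behind them is unknown. Defining markers of testis cells were present in all 6 samples. The Leydig hormone gene Insl3 ranged from 233 to 546 FPKM, the Sertoli gene Clu from 882 to 3714, the spermatocyte lactate dehydrogenase Ldhc from 644 to 1828 and the sperm protamine Prm1 from 679 to 1490 FPKM (the lowest and highest of the 6). The fetal and early postnatal Sertoli hormone Amh stayed at or under 0.57 FPKM and the luteinizing hormone receptor Lhcgr at or under 0.95, so neither was tested. Of marker lists for tissues that a dissection can carry over, 1 of 9 skeletal muscle genes and 1 of 8 epididymis genes in the table passed the filter, as did 2 of 12 T and NK cell genes.

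Of the 6 samples, A10 replicate 3 stood apart, and A0 replicate 2 did so to a lesser degree. Across the tested genes on the log2(FPKM + 1) scale, Pearson's r of A10 replicate 3 with the other 5 samples lay between 0.913 and 0.941, whereas the other A10 pair had 0.984. Genes are not independent replicates, so these values only describe the libraries. A10 replicate 3 held the highest or the lowest of the 6 values in 77.7% of the genes and A0 replicate 2 in 56.4%, against 14.8% to 17.3% for each of the other 4 samples. The median gene of A10 replicate 3 lay 0.15 below the A0 mean on the log2 scale, while the median of each other sample lay within 0.03 of it. For these reasons the medians of the gene lists and many of the gene values below are given again without A10 replicate 3.

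No gene passed the call in this comparison (adjusted p of at most 0.001 and a log2 difference of at least 1, limma over all 18 samples, Benjamini-Hochberg adjustment over 15054 genes; 0.0% called), and the lowest adjusted p of any gene was 0.312. At an unadjusted p under 0.05, 691 genes had a higher mean in A10 (4.59% of the genes tested) and 1677 a lower one (11.1%). In 1193 genes (7.92%) the 3 A10 values all lay above the 3 A0 values, and in 1878 (12.5%) they all lay below, 20.4% in all. Log2 differences of at least 1 were seen for 36 genes upward and 83 downward. The split between higher and lower changed with the scaling. Of the genes at p under 0.05, 29.2% had the higher mean in A10 on the deposited scale, 52.7% after each sample was centred on its median and 47.6% after quantile normalization. The median log2 difference of all genes was -0.06 on the deposited scale, with 41.7% of genes above 0, and 0.01 after centring.

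The counts at an unadjusted p under 0.05 depended on A10 replicate 3. Among the 2368 genes at an unadjusted p under 0.05, it was the A10 sample farthest from the A0 mean in 2196 (92.7%), and among all tested genes in 11725 (77.9%). Without it, 247 genes had a higher (1.64%) and 352 a lower (2.34%) mean at that threshold (599 in all, 3.98%), of which 479 were shared, 20.2% of the 2368 genes and 80.0% of the 599. Without A0 replicate 2 the counts were 172 and 489 (4.39% in all), and without both samples 61 and 110 (1.14% of the genes tested). Other counts did not fall without A10 replicate 3. Non-overlapping genes numbered 4029 (26.8%), where fewer samples make non-overlap easier, and genes with a log2 difference of at least 1 numbered 170. With each of the other 4 samples left out in turn, the sum of both directions lay between 1888 and 4026.

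Genes known to respond to low oxygen were higher on average in each of the 3 A10 cultures than in any A0 culture. Of the 21 hypoxia genes, all tested, 20 had a higher mean in A10, with a median log2 difference of 0.42 against -0.06 over all genes. In 14 of them the A10 values all lay above the A0 values (7.92% of all genes did so), and 6 had a higher mean at an unadjusted p under 0.05 (4.59% of all genes). The list level of a sample, which is the median over the list genes of log2(FPKM + 1) minus the A0 mean of each gene, was 0.00, 0.03 and -0.01 in A0 and 0.29, 0.35 and 0.85 in A10. All 3 A10 cultures lay above all 3 A0 cultures, and A10 replicate 3 was the highest of all 18 samples. Without A10 replicate 3 the median log2 difference was 0.35, the A10 values lay above the A0 values in 15 genes (11.4% of all genes did so, and 26.8% did not overlap in either direction) and 2 had a higher mean at p under 0.05 (1.64% of all genes). Without A0 replicate 2 as well, the median was 0.31.

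Ero1a, the endoplasmic reticulum oxidase that makes disulfide bonds in secreted proteins, showed the largest difference of the list. Its values were 75.6, 78.0 and 71.4 FPKM in A0 and 120.1, 114 and 619 in A10, a log2 difference of 1.43 ± 0.67. Here and below, ± gives the SE of the limma fit, with 3 samples per group. The fit takes the spread of a gene from all 18 samples, so the SE also holds the spread within groups not compared here. Replicates 1 and 2 of A10 were above every A0 value by far less than replicate 3, and without replicate 3 the difference was 0.64. Slc2a1, the glucose transporter GLUT1, had 50.8, 54.6 and 53.9 FPKM in A0 and 75.4, 75.5 and 273 in A10, which gave 1.11 ± 0.55 with all samples and 0.50 without replicate 3. Adm, which encodes the vessel-dilating peptide adrenomedullin, had 52.95, 52.3 and 54.1 FPKM against 78.0, 69.7 and 206 (0.95 ± 0.43, and 0.47 without replicate 3). In these 3 genes the A0 values were nearly equal, and the 2 closely matched A10 replicates lay between them and replicate 3.

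Vegfa, the growth factor for vessels, depended less on that sample. It had 84.0, 74.8 and 75.97 FPKM in A0 and 125, 126 and 215 in A10, a log2 difference of 0.93 ± 0.43, and 0.68 without replicate 3. Bnip3, which helps remove mitochondria, had 112, 112 and 136 FPKM in A0 and 189, 185 and 223 in A10 (0.73 ± 0.27, and 0.64 without replicate 3). Kdm3a, a histone demethylase, had 34.9, 30.5 and 38.5 FPKM against 43.9, 44.3 and 49.8 and the lowest p of the list (log2 difference 0.40 ± 0.11, adjusted p = 0.312). In all 3 genes the groups did not overlap. Bnip3, Kdm3a and Ldha, which follows, were named after their values were seen.

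Ldha, Pdk1 and Hk2, which act in glucose metabolism, differed by smaller amounts than Ero1a, Slc2a1, Adm, Vegfa and Bnip3. Ldha, the lactate dehydrogenase of somatic cells, had 447, 413 and 459 FPKM in A0 and 521, 601 and 802 in A10 (0.52 ± 0.17). Pdk1, a kinase that keeps pyruvate out of the mitochondria, overlapped between groups, with 10.1, 9.20 and 10.0 FPKM against 12.5, 11.6 and 9.12 (0.16 ± 0.27). Hexokinase Hk2 was the list's only gene with a lower A10 mean, with 27.0, 31.9 and 29.0 FPKM against 27.6, 27.6 and 28.8 (-0.06 ± 0.10), and this sign turned after median centring (0.01). A10 replicate 3 was thus the lowest A10 sample for Pdk1 and the highest for Ldha and Hk2.

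**Figure D1:**
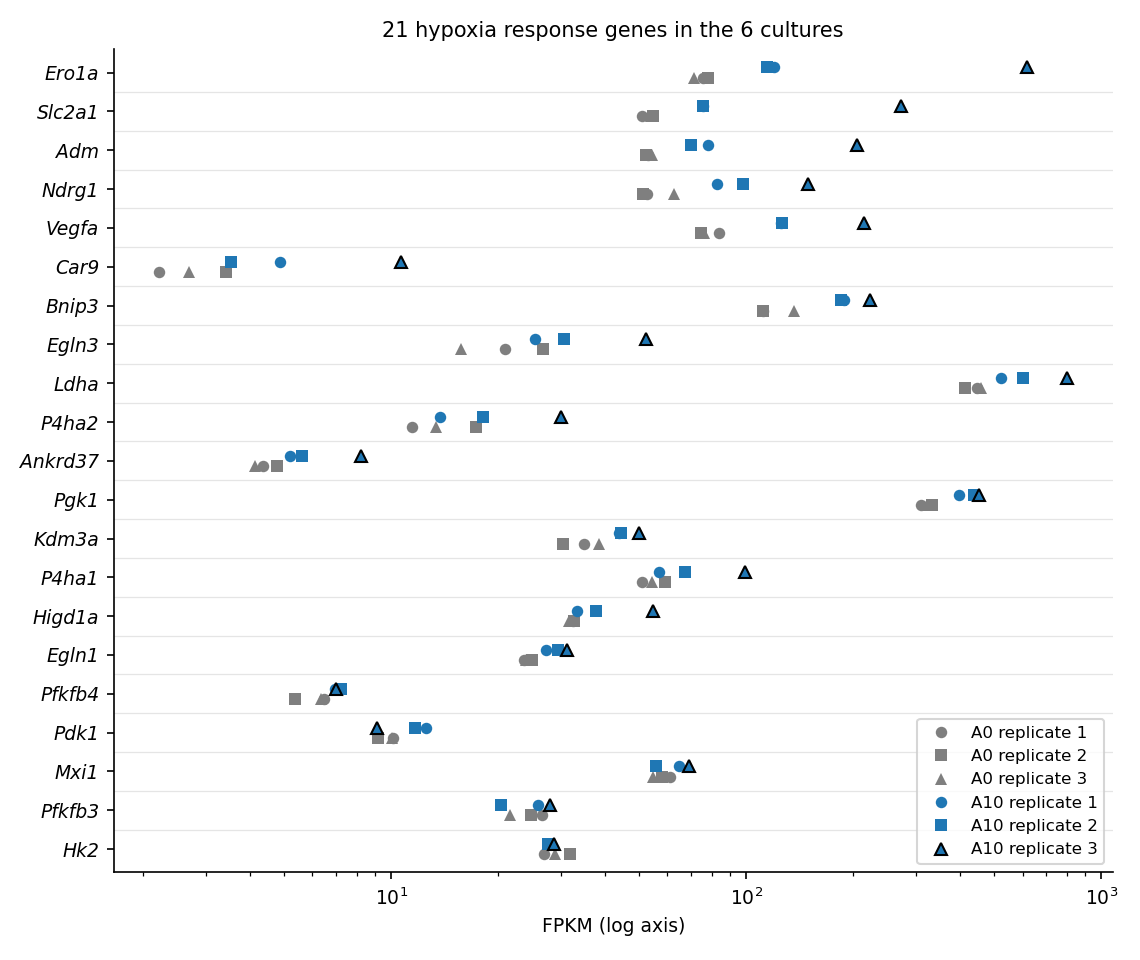
FPKM of the 21 hypoxia genes (rows, ordered by log2 difference) in each A0 sample (grey) and A10 sample (blue), on a log axis, with the shape giving the replicate number and A10 replicate 3 outlined in black. In 14 genes the 3 blue points lie right of the 3 grey points, and for Ero1a replicate 3 stands at 619 FPKM against 114 and 120.1 in the other A10 samples.

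The upstream sequences of the 3 genes with the largest differences in the list are shown because HIF is known to bind DNA at the core ACGTG or GCGTG. They are the 250 bases before the annotated start (RefSeq, GRCm38.p6), written 5′ to 3′ in the direction of the gene, with matches to ACGTG or GCGTG on either strand (read on the other strand as CACGT or CACGC) in capitals. Ero1a lies on the minus strand at chr14:45318573-45318822, Slc2a1 on the plus strand at chr4:119108495-119108744 and Adm on the plus strand at chr7:110627407-110627656.
Ero1a: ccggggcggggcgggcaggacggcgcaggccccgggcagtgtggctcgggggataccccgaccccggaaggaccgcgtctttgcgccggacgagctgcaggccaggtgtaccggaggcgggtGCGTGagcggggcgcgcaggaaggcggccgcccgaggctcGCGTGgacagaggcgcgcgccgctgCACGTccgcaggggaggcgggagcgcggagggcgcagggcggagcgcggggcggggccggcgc
Slc2a1: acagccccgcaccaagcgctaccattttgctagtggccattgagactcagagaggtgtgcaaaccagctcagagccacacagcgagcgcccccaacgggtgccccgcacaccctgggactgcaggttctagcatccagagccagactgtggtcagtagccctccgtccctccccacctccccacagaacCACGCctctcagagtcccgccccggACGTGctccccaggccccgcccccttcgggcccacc
Adm: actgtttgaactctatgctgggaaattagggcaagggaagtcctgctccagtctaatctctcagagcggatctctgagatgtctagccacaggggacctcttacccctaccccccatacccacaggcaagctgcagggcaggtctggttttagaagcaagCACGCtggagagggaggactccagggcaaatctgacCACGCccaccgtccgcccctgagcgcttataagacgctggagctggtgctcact
Ero1a held 3 matches, Slc2a1 and Adm 2 each. Of the 28 such windows of the 20 hypoxia genes found in the table of promoters, 17 (60.7%) held ACGTG and 23 (82.1%) held either core. The 14493 windows of the 11406 tested genes found there held them in 20.9% and 52.9%, and all 32851 windows of the table in 16.6% and 38.6%. A window with several matches was counted once, and matches on opposite strands can overlap, as in CACGTG. A match describes these letters and not binding. The list was made of genes known to respond to low oxygen, so a higher share of the core can come from that choice alone. These shares do not depend on the A10 values, and a part of HIF in those values was not tested.

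The same genes varied more between samples in the other groups of the series than among the A0 samples. The hypoxia list level was 0.22, -0.22 and 0.18 in the 3 cultures with 50 μg/mL AOS (A50), which are compared with the same A0 samples. In cultures of mice given busulfan (an alkylating agent toxic to spermatogonia), 40 μg per g body weight, it was 0.73, 0.47 and 0.21 without AOS (B0), 0.10, -0.26 and 0.42 with 10 μg/mL (BA10) and -0.07, -0.36 and 0.51 with 50 μg/mL (BA50). The A0 samples lay close together, whereas every other group spread widely, and the B0 levels overlapped those of A10. Ero1a had 253, 285 and 92.8 FPKM in B0 and 79.8, 59.9 and 220.3 in BA10, so that 2 of the 3 B0 samples held its highest values outside A10 replicate 3. After busulfan the median log2 difference of the list with 10 μg/mL AOS (BA10 minus B0) was -0.35, and 2 of 21 genes had a higher mean. The difference between both effects had an unadjusted p under 0.05 in 12 of the 21 genes (3.84% of all genes tested), but no gene of the table passed an adjusted p under 0.05 in this test (0.0% called). For Bnip3 the difference of the effects was 1.18 on the log2 scale (limma, unadjusted p = 0.00710, adjusted p = 0.913), and for Vegfa 1.53 (unadjusted p = 0.0236).

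**Figure D2:**
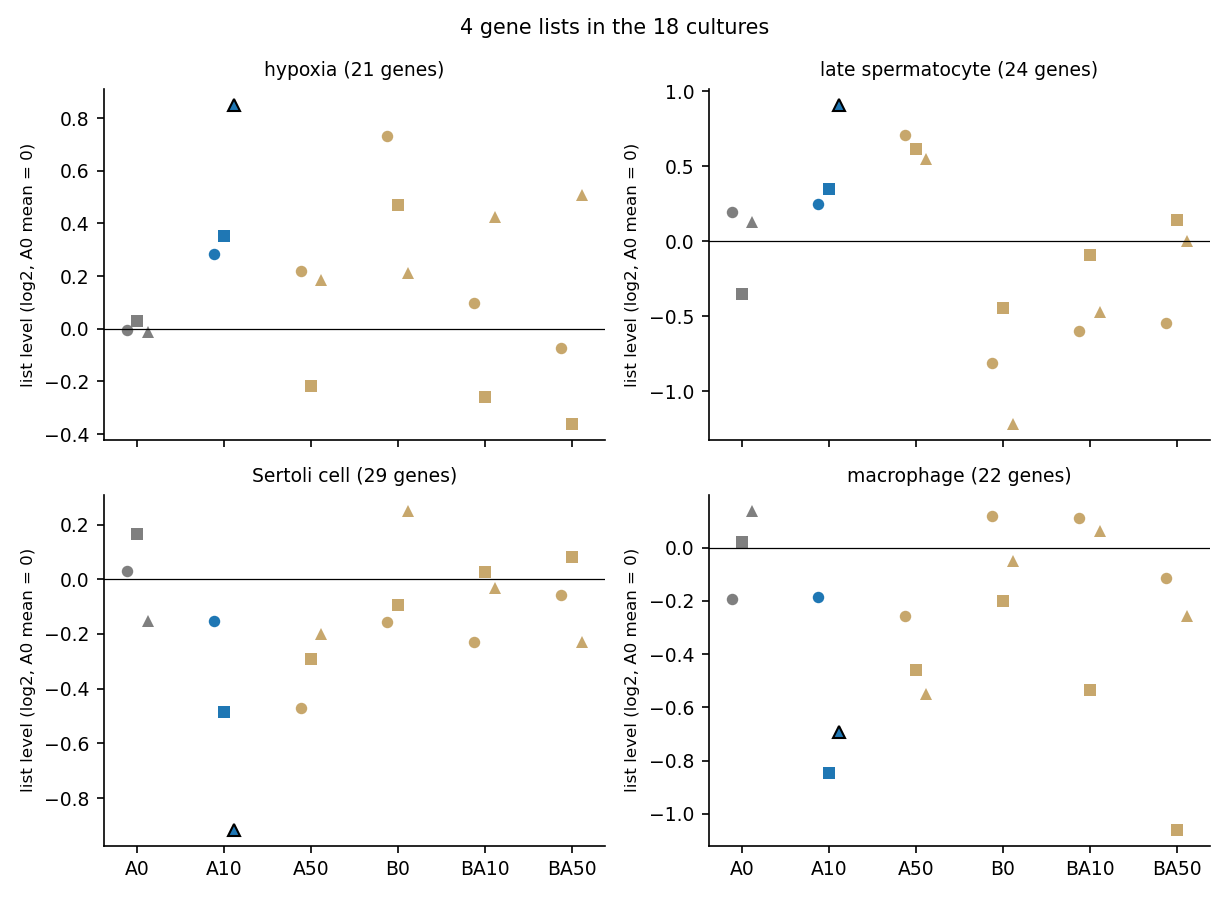
Level of 4 gene lists (log2, A0 mean set to 0) in each of the 18 samples, by group, with A0 in grey, A10 in blue and the other groups in tan, and with the shape giving the replicate number. A10 replicate 3, outlined in black, is the highest of the 18 for the hypoxia and late spermatocyte lists and the lowest for the Sertoli cell list.

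Germ cell genes of the middle of meiosis were also higher on average in A10, and these depended on 2 samples. In whole tissue, fewer cells of a type and less RNA per cell cannot be told apart. All 24 genes of the late spermatocyte list had a higher mean in A10, with a median log2 difference of 0.51. In 14 the A10 values all lay above the A0 values (7.92% of all genes), and 8 had a higher mean at an unadjusted p under 0.05 (4.59% of all genes), which became 3 (against 1.64%) without A10 replicate 3. The list level was 0.20, -0.35 and 0.13 in A0 and 0.25, 0.35 and 0.91 in A10. A0 replicate 2 was the lowest and A10 replicate 3 the highest, while A10 replicates 1 and 2 lay just above the other A0 samples. Without A10 replicate 3 the median was 0.30, and without A0 replicate 2 as well it was 0.13. The A50 cultures, which share the A0 controls, had levels of 0.71, 0.62 and 0.55. After busulfan the levels were -0.81, -0.44 and -1.22 in B0 and -0.60, -0.09 and -0.47 in BA10, and the median log2 difference between them was 0.38 with 24 of 24 genes above 0.

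Piwil1, a PIWI protein that carries small RNAs against transposons in spermatocytes and round spermatids, did not follow A10 replicate 3. Its values were 17.8, 9.13 and 22.1 FPKM in A0 and 27.3, 27.4 and 26.7 in A10, with a log2 difference of 0.78 ± 0.23, 0.79 without replicate 3 and an adjusted p of 0.312 (limma). The 3 A10 values were nearly equal and the spread lay in A0. The difference was 0.43 without A0 replicate 2 and 0.44 without A0 replicate 2 and A10 replicate 3. Ldhc, the germ cell lactate dehydrogenase, had 1024, 644 and 899 FPKM against 1012, 1076 and 1828 and overlapped between groups (0.58 ± 0.28). Hspa2, a heat shock protein that spermatocytes need in meiosis, had 175, 117 and 167 FPKM against 177, 189.6 and 252 (0.43 ± 0.24). The phosphatase Cdc25c showed the smallest difference of the list, 0.10 ± 0.17, which was -0.09 without A10 replicate 3.

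The genes that build and move the sperm tail followed the same samples. Of 23 tested genes of the axoneme and of cilia motility, 22 had a higher mean in A10, with a median log2 difference of 0.43. In 10 the A10 values all lay above the A0 values (7.92% of all genes), and 3 had a higher mean at an unadjusted p under 0.05 (4.59% of all genes), which became 0 without A10 replicate 3. The list level was 0.20, -0.34 and 0.12 in A0 and 0.21, 0.31 and 0.85 in A10, close to that of the late spermatocyte list in each sample. Rsph1, a radial spoke protein, had 286, 215 and 303 FPKM in A0 and 348, 358 and 548 in A10 (0.62 ± 0.24, and 0.41 without replicate 3). Among the dynein heavy chains, the motors of the axoneme, Dnah2 had 5.00, 3.40 and 6.0 FPKM against 6.41, 6.33 and 8.67 (0.50 ± 0.18), Dnah1 differed by 0.36 ± 0.18 and Dnah7a by 0.47 ± 0.25. The groups did not overlap in these 4 genes. Dnah8 differed by -0.18 ± 0.50, the other direction, with overlapping groups. Without A10 replicate 3 and A0 replicate 2 the list median was 0.07.

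Earlier and later germ cell steps showed less. In the meiotic prophase list the median log2 difference was 0.20 over 25 genes, and 0.16 without A10 replicate 3. Spo11, the enzyme that cuts DNA to start recombination, had 3.94, 2.72 and 6.08 FPKM in A0 and 7.61, 6.76 and 8.36 in A10 (0.76 ± 0.21, adjusted p = 0.312, limma), with all A10 values above all A0 values. The synaptonemal complex genes Sycp1 and Sycp3 differed by 0.27 ± 0.33 and 0.12 ± 0.17. Spermatid genes rested on A10 replicate 3. The round spermatid list had a median of 0.38 with 24 of 25 genes above 0, yet its level was 0.40, -0.32 and -0.10 in A0 and 0.00, 0.12 and 1.00 in A10, and without replicate 3 the median was 0.05. Acrv1, a protein of the acrosome, had 60.7, 36.6 and 38.4 FPKM against 46.1, 40.8 and 96.1. All 30 genes of the elongating spermatid list had a higher A10 mean (median 0.28), but there were 0 genes in which all A10 values lay above all A0 values, and the median without replicate 3 was 0.02. The protamine gene Prm1, whose product packs sperm DNA, had 1205, 679 and 905 FPKM in A0 and 719.6, 1489.6 and 1376 in A10 (0.33 ± 0.33).

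The spermatogonia list had the opposite sign, with a median log2 difference of -0.25 over 22 tested genes and 3 genes above 0. Its level was -0.09, 0.23 and -0.07 in A0 and -0.26, -0.08 and -0.45 in A10, so the groups overlapped. The median was -0.19 without A10 replicate 3, and without A0 replicate 2 as well it was -0.04. The stem cell receptor Gfra1 had 2.53, 2.76 and 1.83 FPKM against 1.68, 1.87 and 2.11, and Zbtb16, a factor of undifferentiated spermatogonia, 2.60, 4.02 and 3.28 against 3.42, 2.38 and 2.02. Crabp1, a retinoic acid binding protein, showed the largest lower mean, with 6.36, 10.1 and 7.67 FPKM in A0 and 5.77, 6.27 and 4.20 in A10 (-0.49 ± 0.16). Dmrtb1, which acts at the entry into meiosis, was the list's highest, with 127, 91.9 and 127 FPKM against 129.8, 135 and 259, and its value in A10 replicate 3 was far above the other A10 values.

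Sertoli cell genes were lower on average in A10, most of all in A10 replicate 3. Of the 29 tested genes, 1 had a higher mean, and the median log2 difference was -0.48. In 16 genes the A10 values all lay below the A0 values (12.5% of all genes did so), and 17 had a lower mean at an unadjusted p under 0.05 (11.1% of all genes). The list level was 0.03, 0.17 and -0.15 in A0 and -0.15, -0.49 and -0.92 in A10. A10 replicate 1 and A0 replicate 3 were almost equal, and after median centring the groups overlapped. Without A10 replicate 3 the median was -0.25 and 5 genes had a lower mean at p under 0.05 (2.34% of all genes). The A50 cultures had levels of -0.47, -0.29 and -0.20, and after busulfan the median difference of BA10 from B0 was -0.04. In A10 replicate 3 the levels of the spermatid lists were 1.00 and 0.81, and their part in the Sertoli values was not tested.

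Sox9, the factor that sets Sertoli identity, had 18.02, 18.6 and 15 FPKM in A0 and 14.3, 12.3 and 4.71 in A10 (-0.79 ± 0.29, and -0.35 without replicate 3). Wt1, another such factor, had 49.5, 41.6 and 43.1 FPKM against 42.2, 40.0 and 14.2, so that replicates 1 and 2 lay among or beside the A0 values and replicate 3 far below them. Fshr, the receptor for follicle stimulating hormone, had 2.97, 2.53 and 1.22 FPKM against 2.95, 0.92 and 0.68 and overlapped between groups. Serpina5, a protease inhibitor secreted in the male tract, showed the list's largest lower mean and one that all A10 samples shared, with 76.7, 91.5 and 46.6 FPKM in A0 and 40.8, 18.6 and 17.3 in A10 (-1.51 ± 0.39, adjusted p = 0.312, limma, and -1.29 without replicate 3). Inhba, a subunit of activin, was the gene with the higher mean, with 12.7, 17.4 and 14.0 FPKM against 14.1, 29.0 and 32.3 (0.66 ± 0.44).

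Genes of the blood-testis barrier had a median log2 difference of -0.35 over 18 tested genes, 7 of them with a lower mean at an unadjusted p under 0.05 (11.1% of all genes), which became 1 (against 2.34%) without A10 replicate 3. The list level was -0.07, 0.09 and -0.02 in A0 and -0.16, -0.18 and -0.68 in A10, which did not overlap, and the median was -0.20 without A10 replicate 3. Cldn11, the claudin of the Sertoli tight junction, had 378, 356 and 291 FPKM in A0 and 307, 239.9 and 106 in A10 (-0.77 ± 0.32, and -0.32 without replicate 3). Jam2, a junction adhesion molecule, had 78.7, 99.5 and 84.7 FPKM against 70.7, 76.01 and 16.3, where replicate 3 held most of the difference of -0.95 (-0.25 without it). Nectin3, which spermatids carry where they attach to Sertoli cells, had the opposite sign, with 78.9, 48.8 and 66.9 FPKM against 76.9, 81.6 and 107 (0.45 ± 0.24). Tjp1, which encodes ZO-1, had 28.5, 30.7 and 30.0 FPKM against 29.8, 28.6 and 19.2, with replicate 3 alone below the A0 range (-0.22 ± 0.14, and -0.03 without it). Occludin, encoded by Ocln, had 2.32, 2.06 and 1.65 FPKM against 2.51, 1.14 and 1.27 (-0.22 ± 0.19, and -0.13 without replicate 3), and the groups overlapped.

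Macrophage genes gave the lowest median of the 29 lists with at least 3 tested genes, -0.51 over 22 tested genes with 1 above 0, and here A10 replicates 2 and 3 were both low. The list level was -0.19, 0.02 and 0.14 in A0 and -0.19, -0.85 and -0.69 in A10, so that A10 replicate 1 equalled the lowest A0 sample. Without A10 replicate 3 the median was -0.48, and of the A10 samples left only replicate 2 lay below the A0 levels. At an unadjusted p under 0.05, 8 genes had a lower mean (11.1% of all genes), which became 0 (against 2.34%) without A10 replicate 3. The complement genes, which tissue macrophages make, carried the largest differences. C1qc had 57.7, 65.6 and 76.7 FPKM in A0 and 56.8, 21.02 and 13.1 in A10 (-1.36 ± 0.58, and -0.91 without replicate 3), and C1qb had 49.0, 59.2 and 62.0 against 46.8, 17.5 and 12.3 (-1.34 ± 0.55). General macrophage markers differed less. The colony-stimulating factor receptor Csf1r had 9.43, 11.2 and 12.5 FPKM against 9.45, 5.31 and 7.72 (-0.53 ± 0.34), Adgre1, which encodes F4/80, differed by -0.42 ± 0.28, and the lysosomal Cd68 by -0.39 ± 0.26, all with overlapping groups. Aif1 was the gene above 0, with 87.3, 52.3 and 59.4 FPKM against 55.2, 72.6 and 126. The macrophage chemoattractant Ccl12, outside the list, had 25.8, 46.7 and 42.5 FPKM in A0 and 16.1, 10.9 and 6.97 in A10 (-1.70 ± 0.65, and -1.42 without replicate 3), with all A10 values below all A0 values.

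Of 23 tested interferon response genes, 1 had a higher mean, the median log2 difference was -0.34, and in 8 the A10 values all lay below the A0 values (12.5% of all genes). The list level was -0.03, 0.10 and -0.08 in A0 and -0.17, -0.20 and -0.75 in A10. The median without A10 replicate 3 was -0.13. At an unadjusted p under 0.05, 4 genes had a lower mean (11.1% of all genes), which became 1 (against 2.34%) without A10 replicate 3. The antiviral modifier Isg15 had 3.80, 5.70 and 4.59 FPKM against 3.59, 3.47 and 2.36, and Ifit1 1.36, 1.43 and 1.21 against 0.85, 0.81 and 1.01, without overlap in either gene. The regulator Irf7 overlapped between groups (-0.18 ± 0.30). Iigp1, an interferon-induced GTPase, had 9.77, 6.69 and 7.04 FPKM against 8.05, 6.06 and 1.13, where replicate 3 alone was low. Vessel and matrix genes also had medians below 0, -0.34 for 17 endothelial and -0.23 for 33 matrix genes (-0.22 and -0.21 without A10 replicate 3), but their groups overlapped. The endothelial claudin Cldn5 had 12.2, 16.2 and 10.8 FPKM in A0 and 10.8, 7.41 and 3.79 in A10, and the vessel marker Pecam1 11.3, 16.2 and 12.4 against 12.3, 10.5 and 8.12.

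Leydig cell genes did not differ in one direction. The median log2 difference was -0.01 over 21 genes (0.06 after median centring and 0.02 without A10 replicate 3), with 10 above 0. Star, which moves cholesterol into mitochondria, had 187, 193 and 227 FPKM in A0 and 236, 178 and 170.1 in A10, and Cyp11a1, the first enzyme of steroid synthesis, 213, 305 and 417 against 377, 249 and 259.6. Both differences were smaller than their SE (-0.07 ± 0.21 and -0.05 ± 0.36), and both signs turned after centring. Cyp17a1, needed to make androgens, stood at 1.52, 3.96 and 3.00 FPKM against 1.80, 3.63 and 4.04. Fdxr, which passes electrons to the mitochondrial steroid enzymes, had the largest lower mean of the list, with 37.1, 55.3 and 51.4 FPKM against 37.0, 33.7 and 23.1 (-0.61 ± 0.20). The cholesterol synthesis list lay slightly higher, with a median of 0.16 over 22 genes and levels of -0.06, 0.00 and 0.04 in A0 and 0.11, 0.11 and 0.40 in A10, and the median was 0.09 without A10 replicate 3. Sqle, the squalene epoxidase, had 32.1, 26.2 and 31.8 FPKM against 33.1, 33.6 and 48.8, while Ebp, an isomerase of the same pathway, had the opposite sign (23.2, 23.4 and 21.6 against 20.2, 16.2 and 9.44).

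In all, 4 of the 29 lists with at least 3 tested genes had levels in A10 above all A0 levels (hypoxia, late spermatocyte, axoneme and cholesterol synthesis) and 3 had levels below them (Sertoli cell, blood-testis barrier and interferon response). Of all single genes tested, 7.92% lay above and 12.5% below in this way, 20.4% in all, so the count of lists alone does not single out programs. The Sertoli cell groups were apart by -0.1532 in A0 replicate 3 against -0.1533 in A10 replicate 1. A10 replicate 3 was the A10 sample farthest from 0 in 19 of the 29 lists. Over 26 inflammatory genes the median was 0.09 (0.04 without A10 replicate 3), and over 75 ribosomal protein genes -0.03 (0.05 after median centring and -0.06 without A10 replicate 3), with 0 at an unadjusted p under 0.05. The interleukin Il6 had 9.97, 12.6 and 11.4 FPKM in A0 and 9.13, 26.6 and 19.4 in A10. The other 12 lists (among them heat shock, p53 target, immediate early and red blood cell genes) had medians between -0.21 and 0.34 and overlapping levels.

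**Figure D3:**
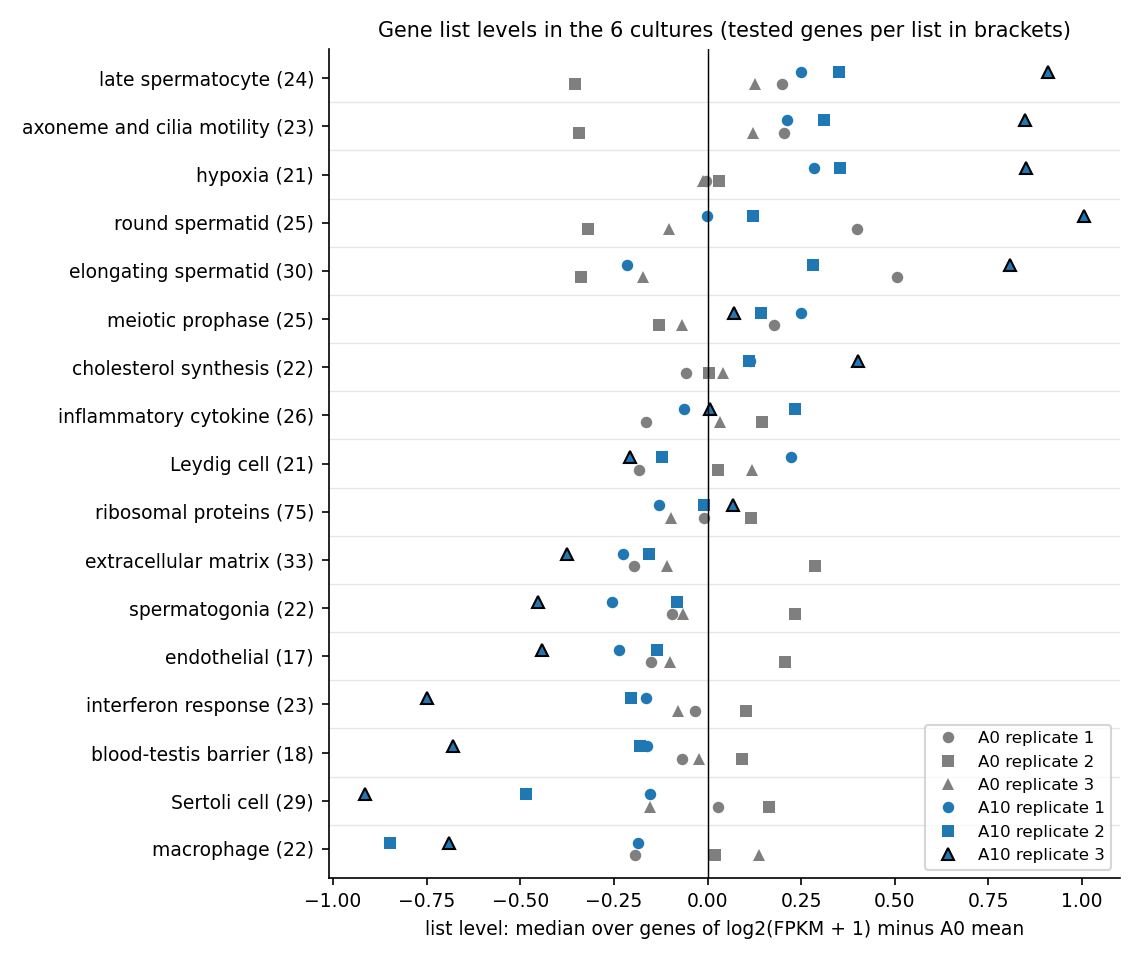
Level of 17 gene lists in each A0 sample (grey) and A10 sample (blue), as the median over the tested genes of log2(FPKM + 1) minus the A0 mean, with the number of tested genes in brackets, the shape giving the replicate number and A10 replicate 3 outlined in black. For the hypoxia list the A0 points lie together at 0 and the A10 points at 0.29, 0.35 and 0.85, while A10 replicate 3 lies farthest from 0 among the A10 points in 19 of all 29 lists.

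**Figure D4:**
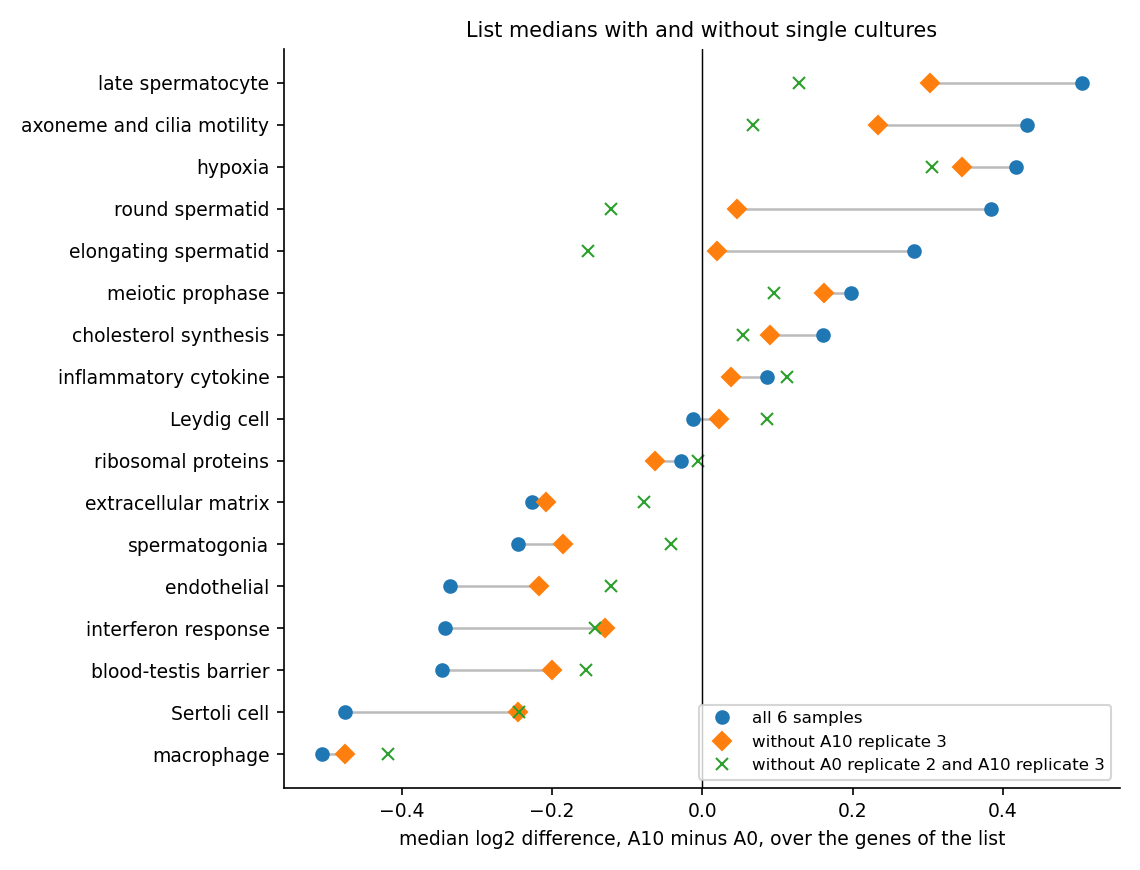
Median log2 difference (A10 minus A0) of the same 17 lists with all 6 samples (blue circles), without A10 replicate 3 (orange diamonds) and without A0 replicate 2 and A10 replicate 3 (green crosses). The hypoxia median is 0.42, 0.35 and 0.31 and the macrophage median -0.51, -0.48 and -0.42, whereas the round spermatid median goes from 0.38 to 0.05 and -0.12.

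The genes with the largest higher means among those at an unadjusted p under 0.05 with groups that did not overlap were chosen by these values, which are therefore given as a description. Ttc39d, a gene of little known function, had 2.02, 0 and 2.39 FPKM in A0 (1 sample listed at 0) and 7.26, 11.8 and 23.5 in A10. Ghrh, the growth hormone releasing hormone, which the testis also makes, had 5.45, 2.73 and 6.09 FPKM against 16.9, 20.6 and 15.8, and its log2 difference of 1.75 ± 0.77 was 1.83 without replicate 3. Its values in the other groups ranged widely, with 12.6, 5.83 and 22.3 FPKM in A50 and 3.78, 24.8 and 9.66 in B0. Car12, a carbonic anhydrase of the cell surface, had 5.03, 4.81 and 9.52 FPKM against 12.3, 25.0 and 36.1 (1.71 ± 0.53), and Ptgs2, the inducible enzyme of prostaglandin synthesis, 28.1, 30.8 and 33.6 against 38.6, 77.2 and 118 (1.17 ± 0.42). In both, A10 replicate 1 lay nearest to A0. The importin Kpna2 had 4.28, 2.42 and 4.09 FPKM against 5.12, 5.28 and 85.3, so that replicate 3 held the difference. Cers3, which makes the very long chain ceramides of germ cells, had 12.2, 6.78 and 12.9 FPKM against 19.0, 17.9 and 24.2 and a log2 difference of 0.79 without replicate 3. The tubulin gene Tuba3b had 70.5, 50.7 and 67.6 FPKM against 96.3, 115 and 168, which is uncertain because its near-identical copy Tuba3a can share reads, and Tmem30c had 12.6, 5.07 and 13.8 against 18.4, 17.8 and 25.8. Adm and Vegfa, given above, complete these 10.

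Of the 10 genes with the largest lower means by the same choice, Serpina5, Ccl12, C1qc and C1qb are given above. Acadl, a mitochondrial enzyme that breaks down long fatty acids, had 1.32, 25.9 and 5.30 FPKM in A0 and 0.03, 0.03 and 0 in A10. One A0 sample held most of that difference, and the values of B0 replicate 1 and BA50 replicate 1 were as high (25.2, 3.25 and 0.25 FPKM in B0 and 30.3, 0.36 and 0 in BA50). Tmem89, a transcript of the testis, had 4.09, 2.30 and 5.57 FPKM against 0.09, 0.14 and 1.14. Scn3b, a sodium channel subunit, had 4.49, 11.5 and 5.38 FPKM against 3.70, 1.86 and 0.46, and the mast cell tryptase Tpsb2 1.14, 7.52 and 1.32 against 0.48, 0.15 and 0.52. In both genes A0 replicate 2 was the highest of the 6 samples. Tmem134 had 11.9, 16.0 and 13.2 FPKM against 7.91, 6.17 and 2.16 and the lowest p of these 20 genes (adjusted p = 0.312, limma). Pigp, an enzyme of the GPI anchor pathway, had 3.15, 12.6 and 4.98 FPKM against 2.53, 1.88 and 1.33, again with A0 replicate 2 highest.

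The 2 samples that stood apart shared a set of genes with each other across the groups. In 42 features, A0 replicate 2 and A10 replicate 3 were both at least 1 above the other 4 samples on the log2 scale, and in 68 both were at least 1 below. In each of the other 14 pairs of samples there were at most 4 such features above and 13 below. Gene models added by the sequencing provider made up 19 of the set of 42 and 42 of the set of 68, against 775 of all 15054 genes tested. Of the 23 with a position in the set of 42, 15 had another of that set within 10 tested genes on the same chromosome. In the set of 68 this was so for 14 of 26 with a position. The share of such neighbours in sets of other genes was not computed. In the set of 42, neighbours on chromosome 17 were Angptl4, Cd320, Rps28, Daxx, Ier3 and the MHC genes H2-Q2 and H2-Q10. Neighbours on chromosome 6 were Ppfibp1, Fgfr1op2, Stk38l, Ints13 and Smco2, and on chromosome 4 Eno1, Slc2a5 and Ube4b (positions from RefSeq, GRCm38.p6). These genes of the set were named after their values were seen. Ppfibp1 had 23.6 FPKM in A0 replicate 2 and 15.2 in A10 replicate 3 against 0.48 to 5.72 in the other 4. Outside these groups it was high in B0 replicate 1 and BA50 replicate 1, with 21.5 and 25.2 FPKM, and at most 3.69 in the other 10 samples. Hmga1b had 137 and 148 FPKM against 2.27 to 31.4, and 175 and 179.8 in B0 replicate 1 and BA50 replicate 1. The glycolytic enolase gene Eno1 had 109 and 470.0 FPKM against 10.5 to 24.6. Values of Hmga1b, Eno1, Hspa1a, Gm3417 and Rps2 are uncertain, because near-identical copies can share their reads. In the other direction, Etnk2, an ethanolamine kinase, had 2.10 and 1.61 FPKM against 14.1 to 22.6, and Cwc22, a splicing factor, 25.9 and 23.9 against 57.2 to 159. Of the 6 genes with the largest excess of A10 replicate 3 over the other A10 samples, Gm3417, Hspa1a, Eno1, Hmga1b, Smco2 and H2-T18, all 6 belong to the set of 42. Of the 6 farthest below, Etnk2, Retsat and Cwc22 belong to the set of 68, and Fam180a, Ilrun and Clca3a2 do not. Over all tested genes the deviations of both samples from their group means had a Pearson's r of 0.03. In some lists both samples lay on opposite sides, as in the late spermatocyte levels of -0.35 and 0.91. Such genes can offset shared ones in this r, so it does not tell how far the set extends.

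**Figure D5:**
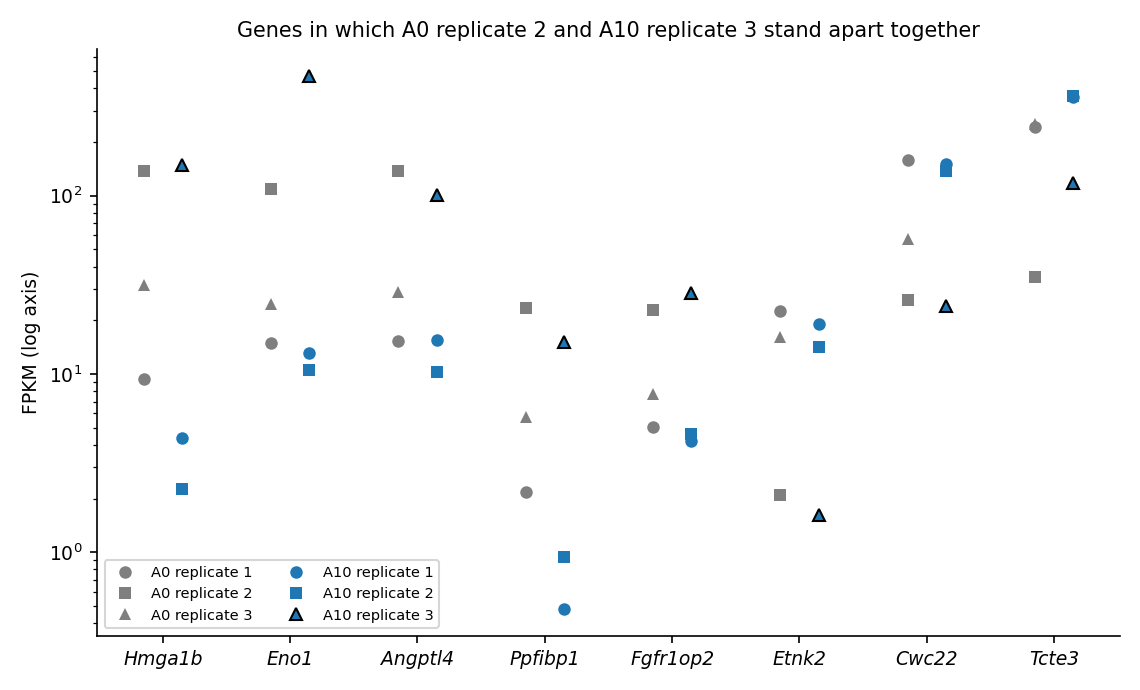
FPKM (log axis) of 8 genes in which A0 replicate 2 and A10 replicate 3 lie together on one side of the other 4 samples, with A0 in grey, A10 in blue, the shape giving the replicate number and A10 replicate 3 outlined in black. In Hmga1b the 2 samples stand at 137 and 148 FPKM and the others at or below 31.4, and in Etnk2 they stand at 2.10 and 1.61 against 14.1 to 22.6.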

How the data were processed

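Total RNA of cultured testes was turned into poly(A) libraries and sequenced in 18 samples, of which the 3 A0 and 3 A10 samples are compared here. The authors deposited 1 table of FPKM values per gene and sample, with no read counts. The submitters' processing notes name HISAT, Bowtie2, RSEM and the build GRCm38.p5 without their roles, whereas the study's supplementary methods describe SOAPaligner and RPKM, so which steps gave the values is not settled and longer or multi-copy genes may depend on it. Depth is unknown, because the low FPKM values of 1782 genes did not resolve into whole reads (19.0% of 8764 ratios lay within 0.1 of a whole number, against 20% for evenly spread values). Samples were grouped by their titles.

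Genes with at least 1 FPKM in 3 or more of the 6 samples were tested on log2(FPKM + 1), a scale that understates differences of low genes, with limma 3.58.1 in R 4.3.3 (1 coefficient per group, all 18 samples, two-sided moderated test with a mean trend, Benjamini-Hochberg adjustment over all genes tested). Python 3.11.15, pandas 2.3.3, NumPy 2.4.6 and matplotlib 3.10.9 were used for the rest. The fit was tested on simulated data. A call needed an adjusted p of at most 0.001 and a log2 difference of at least 1. The genes named were the 10 largest rises and 10 largest falls among genes at an unadjusted p under 0.05 with groups that do not overlap, in each list the first 3 tested genes and those with the largest rise and fall, and the 6 genes farthest above and 6 farthest below in A10 replicate 3 relative to the other A10 samples. Not every gene that this rule picks is described here. The comparison, the 32 gene lists and the genes were chosen with earlier results of these data known.

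Alternatives were a pseudocount of 0.1, no filter, a mean of at least 5 FPKM, quantile normalization, median centring, fits of 6 or 9 samples, no trend, sample quality weights, the replicate number as a block, and each replicate left out in turn. Weights estimated gene by gene and the joint removal of A0 replicate 2 and A10 replicate 3 were added after seeing the data. Same-numbered samples did not deviate together (Pearson's r of -0.13, -0.09 and -0.22 for numbers 1 to 3), so the numbers were not used as pairs.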

Additional observations from a re-analysis of the deposited data

Results flagged for a closer look

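In 4 named genes every A10 sample lay on one side of the A0 mean and every BA10 sample on the other side of the B0 mean. The genes were picked by these opposite signs, and the p-values below come from the same values. The unadjusted p-values are therefore given only as a description. The difference between both effects was tested in the limma fit, and none passed Benjamini-Hochberg adjustment over all genes. Bnip3 differed by 0.73 without busulfan and by -0.45 after it, a difference of 1.18 (unadjusted p = 0.00710, adjusted p = 0.913, limma). Ldha differed by 0.52 and -0.13 (unadjusted p = 0.0178, adjusted p = 0.913). Id4, a factor of undifferentiated spermatogonia, differed by 0.20 and -0.21 (unadjusted p = 0.0298, adjusted p = 0.913). Saa3, an acute phase protein, differed by -0.54 and 0.34 (unadjusted p = 0.244, adjusted p = 0.915), and without busulfan its difference lay mostly in A10 replicate 3, at -1.39 from the A0 mean, against -0.02 and -0.23 in the other A10 samples.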

How the results depend on the processing

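The call was met by 0 genes under every alternative with a test except sample quality weights, which gave 10 (2 higher and 8 lower), and 5 for the difference of the effects with and without busulfan. Those weights came from an estimation that did not reach its convergence tolerance (10.85 for A10 replicate 2 and 0.11 for A10 replicate 3), and the weights estimated gene by gene gave 0 calls. The lowest adjusted p with the gene-by-gene weights was 0.00745, against 0.312 in the main fit (limma). With no test, the mean FPKM differed by a factor of 2 or more in 233 genes. At an unadjusted p under 0.05, the main counts of 691 higher and 1677 lower became 1173 and 1052 after median centring, 373 and 524 with only the A0 and A10 samples in the fit, 2505 and 3355 with sample quality weights and 61 and 110 without A0 replicate 2 and A10 replicate 3. Leaving out 1 replicate at a time gave 172 to 1181 higher and 352 to 2845 lower, the lowest counts without A0 replicate 2 (higher) and A10 replicate 3 (lower) and the highest without A10 replicate 1. The counts of genes with groups that do not overlap ranged from 1374 to 2571 higher and from 2082 to 3706 lower with 1 replicate left out, where fewer samples make non-overlap easier. They were 2136 higher without both samples, and 1235 and 1247 lower after quantile normalization and median centring. The cause of these shifts was not tested. With the replicate number as a block, 607 genes were higher and 1640 lower at an unadjusted p under 0.05, 0 passed the call, and 4 and 3 lists did not overlap, so the block changed no call. The numbers did not pair the samples.

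The medians of the hypoxia, cholesterol synthesis, meiotic prophase, blood-testis barrier and interferon response lists moved under every alternative by less than the spread between replicates. That spread is the pooled SD of the 6 list levels, which A10 replicate 3 widens, so this is a loose limit. Within it, the interferon response median went from -0.34 to -0.13 without A10 replicate 3 (SD 0.24). The elongating spermatid median, also within it, went from 0.28 to -0.15 without A0 replicate 2 and A10 replicate 3 (SD 0.48). Without A0 replicate 2 and A10 replicate 3 the median moved to 0.13 for late spermatocyte, 0.0674 for axoneme, -0.12 for round spermatid, -0.0418 for spermatogonia and -0.12 for endothelial genes. With sample quality weights it was 0.0044 for spermatogonia, -0.13 for endothelial and -0.90 for macrophage genes, and with the mean filter of 5 FPKM -0.28 for Leydig cell genes. With 1 replicate left out the Sertoli cell median ranged from -0.80 to -0.25. The lists whose groups did not overlap numbered 4 to 7 higher and 4 to 8 lower with 1 replicate left out, and 5, 6 and 8 lower with no filter, with the mean filter and without both samples.

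Of 82 named genes followed, 13 changed sign under an alternative. The 82 leave out the 6 genes farthest above and 6 farthest below in A10 replicate 3. Without that sample the sign turned in Eno1 (from 0.25 to -1.48), Gm3417, Etnk2 (from -0.22 to 0.70), Fam180a and Clca3a2. It did not turn in Hspa1a, Hmga1b, Smco2, H2-T18, Retsat, Ilrun and Cwc22. None of the 82 met the call in the main fit. Without both samples the log2 difference was -0.117 for Cdc25c, -0.15 for Acrv1, -0.17 for Izumo1, -0.0121 for Prm1, -0.15 for Prm2, -0.0720 for Tnp1, -0.18 for Aif1, 0.0857 for Irf7 and 0.0430 for Cyp11a1. With 1 replicate left out it ranged from -0.0942 (without A10 replicate 3) to 0.23 for Cdc25c, from -0.0224 (without A10 replicate 3) to 0.59 for Acrv1, and from -0.0326 (without A10 replicate 3) to 0.56 for Aif1. The ranges were -0.11 to 0.0030 (without A0 replicate 2) for Hk2, -0.21 to 0.0218 (without A10 replicate 3) for Star, -0.30 to 0.19 (without A0 replicate 3) for Cyp11a1 and -0.15 (without A0 replicate 1) to 0.39 for Cyp17a1. Median centring gave 0.0147 for Hk2, 0.0065 for Star and 0.0254 for Cyp11a1. Sample quality weights gave -0.0631 for Cdc25c, 0.0577 for Dnah8 and 0.35 for Irf7, and weights estimated gene by gene -0.0430 for Cdc25c and 0.14 for Irf7.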
